A study of Arabidopsis thaliana with 24 samples.

Results

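The genes described here are 33 genes of the chloroplast genome that serve its own gene expression or a few other housekeeping tasks. They were chosen by identifier, from a rule that names the plastid RNA polymerase, the plastid ribosomal proteins and ribosomal RNAs, and the genes accD, clpP and matK. They are 33 of 133 chloroplast gene identifiers (ATCG numbers) and of 28775 genes in the files. The sources used here pair 3 of the 33 identifiers with a product: ATCG00670 is clpP, a protease subunit, ATCG00660 is ribosomal protein L20 and ATCG00750 is ribosomal protein S11. The other 30 are given by identifier alone, and no gene was assigned to a class such as polymerase or ribosome.

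The study sequenced RNA of Arabidopsis thaliana in 24 libraries, 2 in each of 12 groups. The plants were the mutant dxo1, whose allele the labels do not give, and wild type Col-0, each with abscisic acid (ABA) and under normal conditions (NT). ABA is a stress hormone of plants that closes stomata and holds seeds dormant. Its dose and duration were not found in the labels. Each combination was read by GMUCT, which sequences uncapped and cleaved transcripts, by NAD capture, which sequences RNA carrying a nicotinamide adenine dinucleotide cap, and as total RNA. The labels describe 12-day-old seedlings and also bud tissue. Of 7 floral organ markers, 5 were at 0 in every total RNA library. There 5 leaf markers, which code for light harvesting, Rubisco and carbonic anhydrase proteins, summed to 882 to 2343 CPM, the reads of a gene scaled to 1000000 gene counts. In the deeper GMUCT libraries no floral marker was at 0 throughout. The floral markers summed to 1.12 to 6.68 CPM there and the leaf markers to 6932 to 8883 CPM.

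Chloroplasts keep a small genome of bacterial ancestry with its own transcription and translation machinery. Its genes are read by a bacterial-type polymerase, whose core is plastid-encoded and whose sigma factors and associated proteins are nuclear-encoded, and by phage-type polymerases imported from the nucleus. Plastid transcripts are made as long polycistronic precursors that are cut and trimmed to mature ends, and they carry no eukaryotic m7G cap. The accD product is a subunit of acetyl-CoA carboxylase in fatty acid synthesis, clpP encodes the plastid-made subunit of the Clp protease, and matK a maturase for intron splicing. The DXO1 protein can take NAD caps off RNA, and loss of it in Arabidopsis is known to disturb chloroplast development.

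Depth differed between the assays. GMUCT libraries held 5793714 to 13940464 gene counts, NAD libraries 750596 to 1526203 and total RNA libraries 878113 to 2027552. Reads that mapped to more than 1 place were tallied apart and not given to genes: they were 23.9% to 37.0% of all tallied reads in GMUCT, 81.1% to 94.4% in NAD and 91.3% to 96.6% in total RNA. DXO1 itself had 23.1 and 19.8 CPM in dxo1 NT GMUCT libraries and 20.0 and 17.0 CPM in dxo1 ABA, against 29.6 and 24.7 CPM in Col-0 NT and 26.9 and 28.8 CPM in Col-0 ABA, so reads of the gene remained in the mutant. In NAD and total RNA libraries DXO1 had 1 to 8 reads each, too few to compare. The first NAD library of ABA-treated Col-0 stood apart, with 94.0% of its gene counts mitochondrial and 1.63% plastid, against 53.6% to 69.4% and 9.49% to 16.8% in the 7 other NAD libraries. Nothing in the labels says that replicates came from separate cultures, so p-values measure the spread between samples that may be technical.

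The genetic system genes took most of the plastid gene counts in GMUCT but little of them in the other 2 assays. Their summed share of plastid gene counts was 67.2% ± 6.73 in GMUCT, 2.56% ± 0.543 in NAD and 1.49% ± 0.879 in total RNA (SD, n = 8 each). Every GMUCT library, from 57.7% to 75.9%, lay far above every NAD library, from 1.88% to 3.68%, and every total RNA library, from 0.293% to 2.58%. The shares in NAD and total RNA overlapped. In total RNA 1 plastid gene outside the set, ATCG00230, took 24.01% to 88.2% of plastid counts, and without it the set held 1.90% to 3.66%. These shares are descriptions of read numbers, not divided by gene length. Reads without a unique place in the genome, most of those in NAD and total RNA libraries, are in none of these shares. Their part in the difference between assays was not tested.

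**Figure D1:**
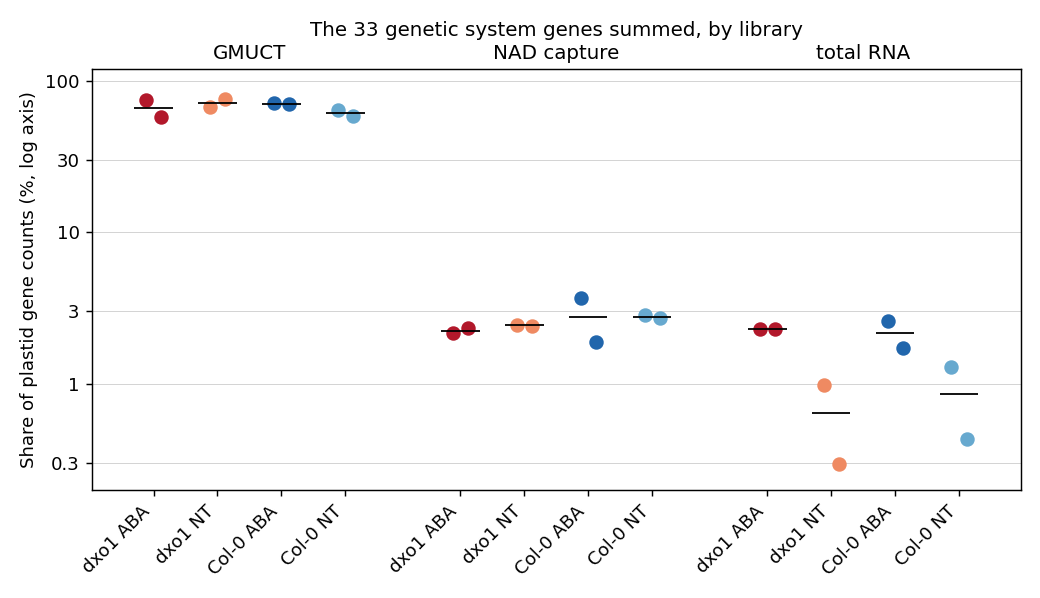
Summed share of plastid gene counts held by the 33 genetic system genes, on a log axis, for each of 24 libraries (points) with the group mean (lines). GMUCT libraries sit between 57.7% and 75.9%, and NAD and total RNA libraries all sit below 4%.

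2 members made up most of that GMUCT share. ATCG00790 and ATCG00330 together gave 85.1% to 87.9% of the members' GMUCT reads, against 25.7% to 29.9% in NAD and 12.6% to 25.9% in total RNA. ATCG00790 alone held 49.8 and 37.1% of plastid counts in dxo1 ABA, 50.7 and 54.1% in dxo1 NT, 33.9 and 39.0% in Col-0 ABA and 37.3 and 29.5% in Col-0 NT GMUCT libraries. In NAD libraries the same gene held 0.116% to 0.330% of plastid counts and in total RNA 0.0138% to 0.139%. ATCG00330 held 13.6 and 12% in dxo1 ABA, 8.47 and 11.6% in dxo1 NT, 27.3 and 21.0% in Col-0 ABA and 17.6 and 20.3% in Col-0 NT GMUCT libraries, with each dxo1 value below each Col-0 value. ATCG00800, clpP and ATCG00810 were the only other members past 1% of plastid counts in a GMUCT library, with highest values of 4.52%, 4.31% and 2.64%.

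Not every member could be measured. 4 members, ATCG00040, ATCG00840, ATCG00900 and ATCG00905, had 0 counts in all 24 libraries, and 29 had at least 1. A count of 0 allows up to 3 reads, from 0.215 CPM in the deepest GMUCT library to 3.997 CPM in the shallowest NAD library, for counting error only. ATCG00830 and ATCG00970 never passed 9 counts in a library. ATCG00960 reached at most 8 counts, in total RNA. After a filter on low counts, 24 of 33 members were tested in GMUCT, 24 in total RNA, 26 in NAD, 26 in NAD with total RNA and 27 in GMUCT with total RNA. Reads that fit 2 places equally well are not in these counts, and their part in the members at or near 0 was not tested.

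The first set of comparisons asked how uncapped and cleaved plastid RNA differed between dxo1 and Col-0. In NT, 3 of 24 tested members rose and 10 fell in dxo1, and with ABA 3 rose and 12 fell (edgeR quasi-likelihood test, Benjamini-Hochberg adjusted p under 0.05). Among all 19644 genes tested, 10.1% rose and 10.4% fell in NT, and 14.8% rose and 15.8% fell with ABA. The members' median log2 fold change was -0.70 in NT and -0.74 with ABA, beside 0.01 and 0.01 over all genes and -0.60 and -0.36 over the other plastid genes tested. 11 members were called the same way in both conditions, 3 higher and 8 lower. The share of all genes called the same way in both was not counted, so these 11 have no background to be read against. The 2 comparisons use separate libraries. Scaled to the plastid total in place of all genes, 3 members rose and 8 fell in NT, and 3 rose and 12 fell with ABA, beside medians of all genes of 0.09 and 0.25. With that scaling 2346 and 5331 of the 19644 genes were called. Without the low-count filter 4 members rose and 16 fell in NT, beside 4542 genes called.

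The 3 members that rose were ATCG00800, ATCG00810 and ATCG00820, which follow one another in the numbering. ATCG00810 had 348 and 441 normalized CPM in dxo1 NT, against 107 and 93.1 in Col-0 NT, and 572 and 250.0 in dxo1 ABA, against 87.3 and 154 in Col-0 ABA. Its log2 fold change was 1.98 ± 0.29 (SE, adjusted p = 0.00011) in NT and 1.77 ± 0.29 (SE, adjusted p = 0.000136) with ABA by edgeR. All 4 dxo1 libraries lay above all 4 Col-0 libraries, and the pair of dxo1 ABA libraries differed from each other by more than the Col-0 pairs did. Without dxo1 ABA replicate 1 the ABA change was 1.06 (adjusted p = 0.00155 by edgeR).

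ATCG00820, which had the fewest reads of these, had 53.0 and 78.2 normalized CPM in dxo1 NT, against 25.1 and 26.5 in Col-0 NT, and 87.3 and 33.9 in dxo1 ABA, against 13.4 and 21.9 in Col-0 ABA. The log2 fold changes were 1.35 ± 0.30 and 1.78 ± 0.33 (SE), and no dxo1 value overlapped a Col-0 value. By the DESeq2 Wald test the NT change had an adjusted p of 0.084, and without dxo1 ABA replicate 1 the ABA change was 0.95 (adjusted p = 0.00901 by edgeR). ATCG00800 had 637 and 739.7 normalized CPM in dxo1 NT, against 336 and 296 in Col-0 NT, and 979 and 553 in dxo1 ABA, against 287 and 485 in Col-0 ABA. It changed by 1.12 ± 0.24 in NT and by 0.99 ± 0.24 with ABA. The groups did not overlap, but the ABA call was lost without dxo1 ABA replicate 1 (log2 fold change 0.52, adjusted p = 0.082 by edgeR), without Col-0 ABA replicate 1 (0.67, adjusted p = 0.101) and by the DESeq2 Wald test (adjusted p = 0.0548), and the NT call without Col-0 NT replicate 2 (1.03, adjusted p = 0.0603).

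**Figure D2:**
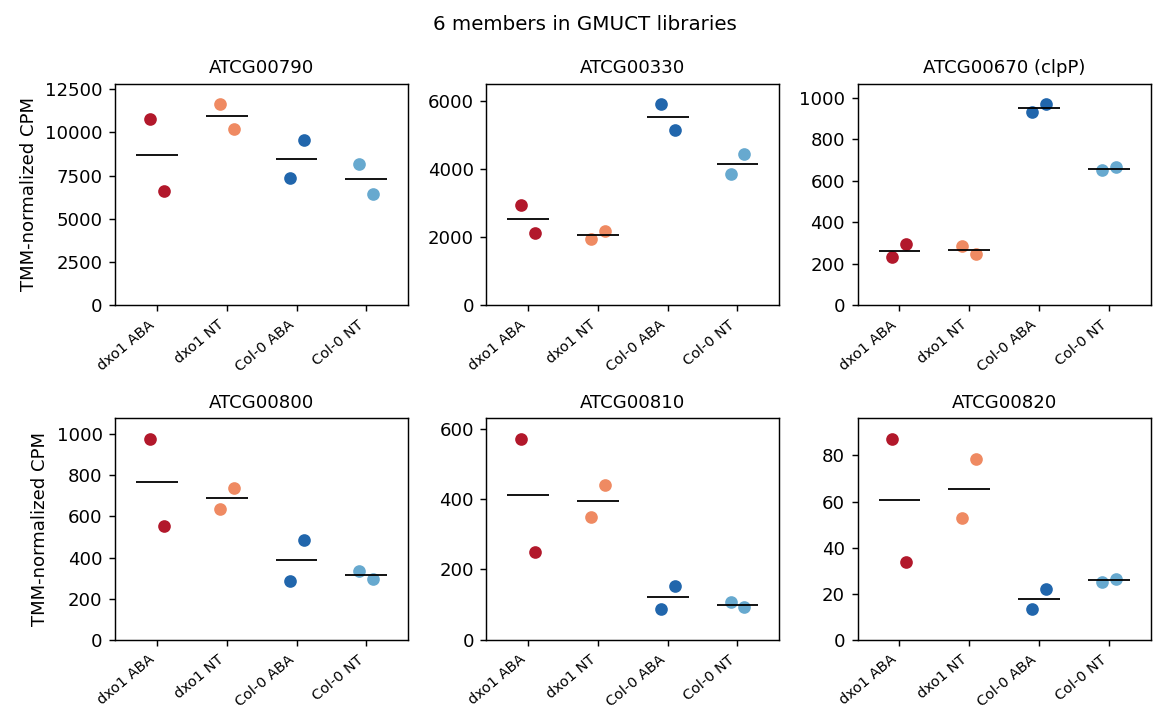
TMM-normalized CPM of 6 members in the 8 GMUCT libraries (points) with group means (lines), on linear axes that start at 0. ATCG00330 and clpP are lower, and ATCG00800, ATCG00810 and ATCG00820 higher, in every dxo1 library than in every Col-0 library, while the ATCG00790 groups lie closer together.

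Within the plastid reads the balance among these neighbours in number also differed by genotype, in ratios chosen after the values were seen and given without a test. For every 100 GMUCT reads of ATCG00800 there were 58.5 and 45.2 reads of ATCG00810 in dxo1 ABA and 54.6 and 59.7 in dxo1 NT, against 30.5 and 31.8 in Col-0 ABA and 31.7 and 31.4 in Col-0 NT. The 4 Col-0 values lay close together and the dxo1 values were all higher. For every 100 reads of ATCG00790 there were 5.30 and 3.78 reads of ATCG00810 in dxo1 ABA and 2.98 and 4.33 in dxo1 NT, against 1.19 and 1.61 in Col-0 ABA and 1.30 and 1.44 in Col-0 NT. Such ratios do not depend on how libraries are scaled. ATCG00790 itself did not pass the test in either condition, with a log2 fold change of 0.58 ± 0.21 (SE, adjusted p = 0.0623) in NT and 0.04 ± 0.21 (SE, adjusted p = 0.902) with ABA.

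Among the members that fell, clpP had the smallest p with ABA. It had 229.9 and 293 normalized CPM in dxo1 ABA, against 934 and 971 in Col-0 ABA, and 287 and 248 in dxo1 NT, against 651 and 664 in Col-0 NT. The log2 fold change was -1.86 ± 0.17 (SE, adjusted p = 1.19e-07) with ABA and -1.30 ± 0.16 (SE, adjusted p = 2.44e-05) in NT by edgeR, and every dxo1 library lay below every Col-0 library. ATCG00065 changed most in NT, with 7.75 and 7.42 normalized CPM in dxo1 NT, against 31.9 and 35.4 in Col-0 NT, and 5.89 and 8.12 in dxo1 ABA, against 24.4 and 20.5 in Col-0 ABA. Its log2 fold change was -2.15 ± 0.19 (SE, adjusted p = 5.17e-07) in NT and -1.67 ± 0.21 (SE, adjusted p = 7.79e-06) with ABA by edgeR, again without overlap.

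ATCG00330, the second most abundant member, had 1948 and 2184 normalized CPM in dxo1 NT, against 3860.3 and 4452 in Col-0 NT, and 2954 and 2136 in dxo1 ABA, against 5923 and 5141 in Col-0 ABA. The change was -1.01 ± 0.18 in NT and -1.12 ± 0.18 with ABA on the log2 scale (SE). The groups were well apart in both conditions. ATCG00180 had 98.1 and 77.3 in dxo1 NT, against 182 and 167 in Col-0 NT, and 69.2 and 72.5 in dxo1 ABA, against 173 and 168 in Col-0 ABA. ATCG01020 had 33.3 and 25.1 in dxo1 NT, against 57.1 and 67.4 in Col-0 NT, and 25.3 and 29.0 in dxo1 ABA, against 53.9 and 53.4 in Col-0 ABA. Both were lower in each dxo1 library, with log2 fold changes of -0.99 ± 0.16 and -1.09 ± 0.17 in NT and -1.27 ± 0.16 and -0.98 ± 0.18 with ABA.

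ATCG00650 had 13.7 and 13.1 normalized CPM in dxo1 ABA, against 38.5 and 36.2 in Col-0 ABA, and 9.89 and 13.97 in dxo1 NT, against 20.3 and 19.3 in Col-0 NT. ATCG00160 had 15.7 and 20.1 in dxo1 ABA, against 32.7 and 34.5 in Col-0 ABA, and 20.2 and 18.98 in dxo1 NT, against 32.6 and 31.9 in Col-0 NT. ATCG00190 had 41.8 and 45.9 in dxo1 ABA, against 81.8 and 88.3 in Col-0 ABA, and 76.8 and 44.4 in dxo1 NT, against 97.1 and 97.2 in Col-0 NT. None of these groups overlapped. ATCG00740 had 95.9 and 66.9 in dxo1 ABA, against 158 and 205 in Col-0 ABA, and 95.9 and 112 in dxo1 NT, against 137 and 132 in Col-0 NT. ATCG00780 had 24.5 and 30.4 in dxo1 ABA, against 57.6 and 67.2 in Col-0 ABA, and 52.5 and 26.9 in dxo1 NT, against 58.9 and 56.8 in Col-0 NT. For these 2 the groups stood further apart with ABA than in NT, a difference that did not pass the interaction test (adjusted p = 0.0667 and 0.249 by edgeR).

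Of these, the members called lower in both conditions were ATCG00160, with log2 fold changes of -0.72 in NT and -0.90 with ABA, ATCG00190, with -0.68 and -0.95, and ATCG00650, with -0.73 and -1.48. ATCG00740, ATCG00780, ATCG00640 and ATCG00770 were called with ABA alone, at -1.16, -1.18, -1.19 and -1.71, beside -0.38, -0.54, -0.77 and -1.04 in NT in the same order. ATCG00170 and the gene of ribosomal protein L20 were called in NT alone, at -0.75 and -0.97, beside -0.46 and 0.36 with ABA. In NT the calls of ATCG00160, ATCG00170, ATCG00190 and ATCG00650 were each lost without at least 1 library, and with ABA those of ATCG00640 and ATCG00770 were lost without Col-0 ABA replicate 2, and that of ATCG00770 also without dxo1 ABA replicate 2. The gene of ribosomal protein S11, ATCG00750, did not pass in either condition, with -0.03 ± 0.20 in NT and 0.11 ± 0.23 with ABA (SE). Of 5 leaf markers 0 rose and 1 fell in dxo1 in each condition, LHCB2.1 at -0.52 in NT and RBCS3B at -0.77 with ABA. Of 5 root markers none was called in NT, and with ABA PRP3 was at 0.57, COBL9 at -1.36 and PIN2 at -0.57. The part of these markers in the members' changes was not tested.

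**Figure D3:**
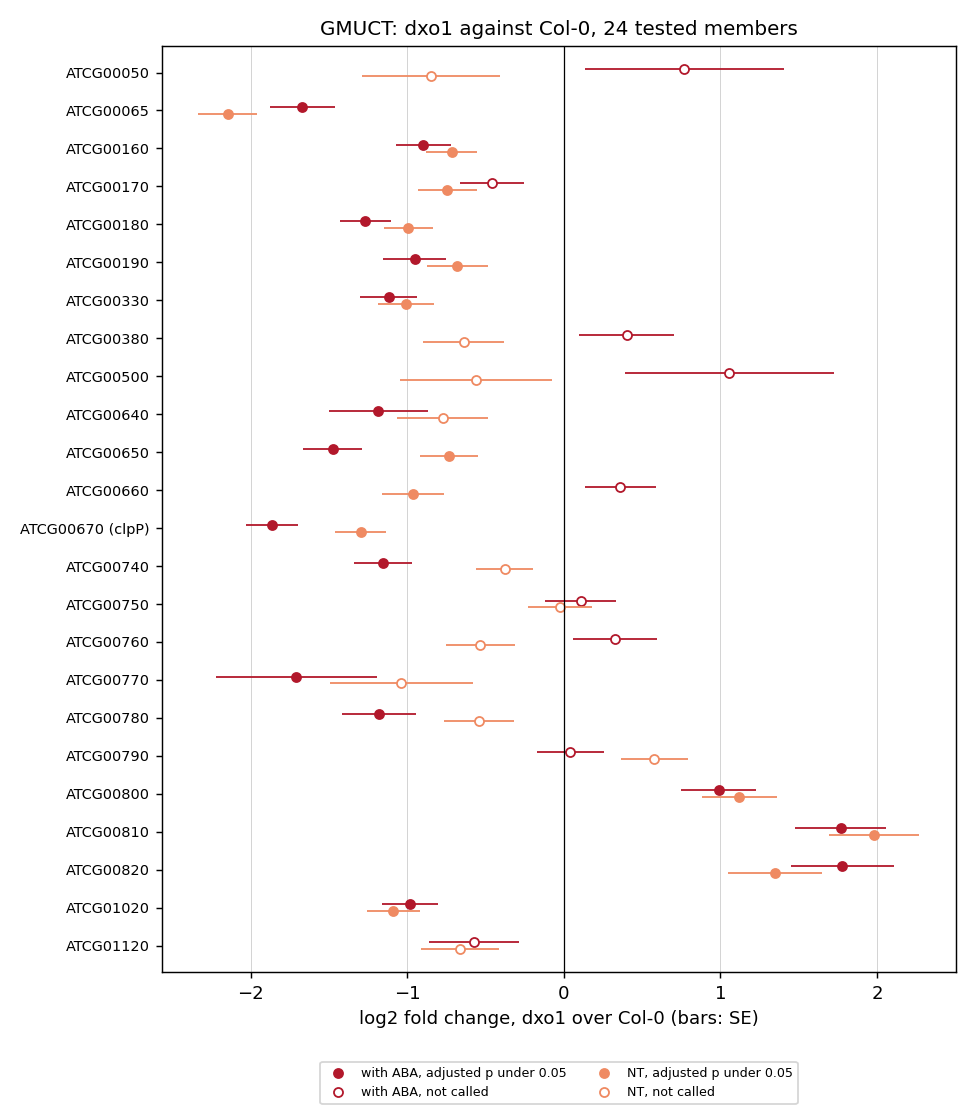
log2 fold change of dxo1 over Col-0 in GMUCT for the 24 tested members, with ABA and in NT, with bars of 1 SE; filled points passed the adjusted p threshold of 0.05. ATCG00800, ATCG00810 and ATCG00820 lie to the right in both conditions, and 8 members are called to the left in both.

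The next comparison asked how ABA changed the GMUCT reads. In Col-0, 8 of 24 members were called, 2 that rose and 6 that fell with ABA, where 26.7% of all genes were called. By direction, 2745 of all 19644 genes rose and 2505 fell. In dxo1 no member was called by edgeR, 3 had an unadjusted p under 0.05, the DESeq2 Wald test called 0, and 7.68% of all genes were called. The members' median was -0.11 in dxo1 and -0.11 in Col-0, beside -0.03 and -0.01 over all genes. The Col-0 count was 3 to 4 with any 1 library left out and 4 by the DESeq2 Wald test. In dxo1 it was 3 without dxo1 ABA replicate 1 or dxo1 NT replicate 2. Root markers summed to 87.0 and 89.0 CPM in dxo1 ABA, against 46.9 and 53.2 in dxo1 NT, and to 59.1 and 65.6 in Col-0 ABA, against 43.5 and 40.4 in Col-0 NT. PRP3 was called in both genotypes, COBL9 in Col-0, and the 1 floral marker tested, SEP3, was lower with ABA, at -2.58 in dxo1 and -1.67 in Col-0. The part of these markers in the members' changes was not tested.

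The gene of ribosomal protein L20, ATCG00660, fell with ABA in Col-0 and was the 1 member whose ABA response passed the test of a difference between the genotypes. In Col-0 it had 13.8 and 12.97 normalized CPM with ABA, against 32.1 and 29.5 in NT, a log2 fold change of -1.20 ± 0.22 (SE, adjusted p = 0.000398) by edgeR. In dxo1 it had 15.3 and 18.98 with ABA, against 19.3 and 12.2 in NT, a change of 0.12 ± 0.20 (SE, adjusted p = 0.83) by edgeR. The Col-0 groups were apart by more than their spread and the dxo1 groups overlapped. The interaction, the ABA response in dxo1 minus that in Col-0, was 1.33 ± 0.30 (SE, adjusted p = 0.00829) by edgeR. 8.92% of all genes tested passed that test. The member count was 5 without dxo1 NT replicate 1, 4 without dxo1 ABA replicate 1 and 2 without either of the other 2 dxo1 libraries, and ATCG00660 passed in each. The interaction comparisons were added after the data were seen.

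Of the other calls in Col-0, ATCG00650 and ATCG00760 held without each library in turn. ATCG00650 had 38.5 and 36.2 normalized CPM with ABA, against 20.3 and 19.3 in NT, and rose by 0.91 ± 0.18 (SE, adjusted p = 0.000948) by edgeR. ATCG00760 had 8.83 and 8.90 with ABA, against 19.5 and 19.7 in NT, with a change of -1.15 ± 0.26 (SE, adjusted p = 0.00246) by edgeR. Both pairs were well apart. In dxo1 the same genes changed by 0.17 ± 0.19 and -0.28 ± 0.23 (SE) and were not called. clpP had 934 and 971 normalized CPM in ABA-treated Col-0, against 651 and 664 in NT, a change of 0.53 ± 0.16 (SE, adjusted p = 0.019) by edgeR that no longer passed without any 1 of the 4 libraries. The calls of ATCG00050 and ATCG00380, at -1.64 and -0.85, were lost in the same way, that of ATCG00065, at -0.58, without each of 3 libraries, and that of the gene of ribosomal protein S11, at -0.63, without Col-0 ABA replicate 1 or Col-0 NT replicate 2.

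Nuclear genes of the same machinery were read from lists in the same GMUCT fits. Of 8 sigma factors and phage-type polymerases, 6 fell and 0 rose with ABA in Col-0, where 26.7% of all genes were called. By direction, 2505 of all 19644 genes fell and 2745 rose. SIG4 changed by -1.11 ± 0.18, SIG5 by -1.18 ± 0.24 and SIG2 by -0.81 ± 0.19 (SE), each a promoter recognition factor of the plastid polymerase. In ABA-treated dxo1 against ABA-treated Col-0, 4 of the 8 rose and 0 fell, beside 14.8% and 15.8% of all genes, and SIG5 was at 1.38 ± 0.24. SIG5 and SIG4 also passed the interaction test, at 1.74 ± 0.32 and 0.91 ± 0.25. In dxo1 none of the 8 was called with ABA by edgeR, with 2 at an unadjusted p under 0.05, and in NT 1, SIG4, was lower in dxo1 (-0.80 ± 0.17). The comparisons of ABA with NT in Col-0 and of dxo1 with Col-0 under ABA share the Col-0 ABA libraries.

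With ABA in Col-0, 26.7% of all 19644 genes were called, 2505 that fell and 2745 that rose. Of 14 proteins associated with the plastid polymerase, 6 fell and 0 rose there. Those that fell included PAP5 at -1.08 ± 0.18, PAP10 at -1.08 ± 0.20 and PAP7 at -0.96 ± 0.28 (SE). Under ABA, 2 of the 14 were higher in dxo1 than in Col-0, a share near the 14.8% of all genes that rose. These were PAP5 and PAP7, at 0.94 ± 0.18 and 0.93 ± 0.28. None was lower, beside 15.8% of all genes. Of 35 nuclear-encoded plastid ribosomal proteins, 0 rose and 11 fell in dxo1 in NT, where 10.1% of all genes rose and 10.4% fell. With ABA 1 rose and 9 fell, where 14.8% of all genes rose and 15.8% fell. The medians of the 35 were -0.29 and -0.18. With ABA in Col-0, 1 of the 35 rose and 6 fell, a share below the 26.7% of all genes called. PSRP3/1, a protein specific to the plastid ribosome, changed by -1.005 ± 0.17 in dxo1 NT. Of 11 nuclear partners of clpP and accD, CLPR2, a nuclear-encoded subunit of the same protease core as clpP, changed by 0.59 ± 0.17 with ABA in Col-0, by -0.89 ± 0.17 in ABA-treated dxo1 against Col-0, and by -0.85 ± 0.23 in the interaction. In total RNA the low-count filter left 3 of the 8 sigma factors and polymerases, 6 of the 14 polymerase-associated proteins, 31 of the 35 ribosomal proteins and 10 of the 11 partners, and in NAD libraries 3, 4, 34 and 9. None of these tested genes was called by edgeR for genotype or ABA in total RNA or in NAD libraries alone, with 0 to 3 genes of a list at an unadjusted p under 0.05 in total RNA and 0 to 5 in NAD.

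The same contrasts in total RNA asked whether the steady level of the members changed. In dxo1, 2 of 24 members rose with ABA and 0 fell, where 0.544% of 4965 genes rose and 0.181% fell. Of 67 other plastid genes tested, 7 rose and 0 fell with ABA in dxo1, and in Col-0 0 rose and 0 fell. In Col-0 no member was called by edgeR, 10 had an unadjusted p under 0.05, the DESeq2 Wald test called 0, and 0.443% of all genes were called. Values were above 0 for 21 of 24 members in each genotype, with medians of 0.70 in dxo1 and 0.89 in Col-0, beside 0.06 and 0.01 over all genes. The other plastid genes had medians of 0.78 and 0.39. Scaled to the plastid total, the median of all genes moved to 1.33 in dxo1 and 0.63 in Col-0, and 2 and 0 members were called. With that scaling 72 and 26 of the 4965 genes were called. Bulk RNA does not tell fewer plastids or cells from less RNA in each. Along with this, ATCG00230 took 36.4% and 33.6% of plastid counts in dxo1 ABA, against 73.0% and 88.2% in dxo1 NT, and 24.01% and 43.5% in Col-0 ABA, against 43.7% and 77.5% in Col-0 NT.

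The called pair was ATCG01020 and ATCG00650. ATCG01020 had 16.5 and 19.9 normalized CPM in dxo1 ABA, against 1.33 and 2.53 in dxo1 NT, from 29 and 28 reads against 2 and 3 reads. The log2 fold change was 3.21 ± 0.57 (SE, adjusted p = 0.019) by edgeR. In Col-0 it had 28.0 and 16.3 with ABA, against 11.7 and 18.4 in NT, groups that overlap. ATCG00650 had 32.4 and 27.0 in dxo1 ABA, against 7.34 and 7.59 in dxo1 NT, and rose by 1.98 ± 0.39 (SE, adjusted p = 0.0304) by edgeR. In Col-0 it had 48.6 and 51.8 with ABA, against 30.5 and 23.5 in NT, which did not overlap and gave 0.87 ± 0.35 (SE, adjusted p = 0.335) by edgeR. In both genes the dxo1 NT libraries are the lowest of the 8. The count of 2 was 4 without dxo1 ABA replicate 2. Neither gene was called without dxo1 NT replicate 1 or without dxo1 NT replicate 2, nor with scaling to library size, and ATCG00650 was not called by the DESeq2 Wald test (adjusted p = 0.0696).

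Between genotypes in total RNA no member was called by edgeR, and the members' medians were -0.20 in NT and -0.25 with ABA, beside -0.00 and 0.04 over all genes. In NT, 8 members had an unadjusted p under 0.05 and with ABA 1, edgeR called 0.0604% and 0.0403% of all genes, and the DESeq2 Wald test called 0 members in each. The smallest p in NT were those of ATCG01020, at -2.88 ± 0.62 (SE, adjusted p = 0.0781) by edgeR, and ATCG00650, at -1.87 ± 0.40 (SE, adjusted p = 0.0781), and ATCG00640 was at -2.09 ± 0.84 (SE, adjusted p = 0.303). Without the low-count filter 1 member was called lower in NT. clpP, which fell in GMUCT, had 342 and 622 normalized CPM in dxo1 NT total RNA, against 448 and 661 in Col-0 NT, and 594 and 2439 in dxo1 ABA, against 1309 and 1000.5 in Col-0 ABA. These groups overlapped, and the replicates of dxo1 ABA differed widely. ATCG00810, which rose in GMUCT, had 219.6 and 129 in dxo1 NT total RNA, against 78.2 and 106 in Col-0 NT, and 209 and 88.2 in dxo1 ABA, against 208 and 165 in Col-0 ABA. The interaction in total RNA called 0 members and 0% of all genes by edgeR, with 3 members at an unadjusted p under 0.05 and 0 by DESeq2.

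**Figure D4:**
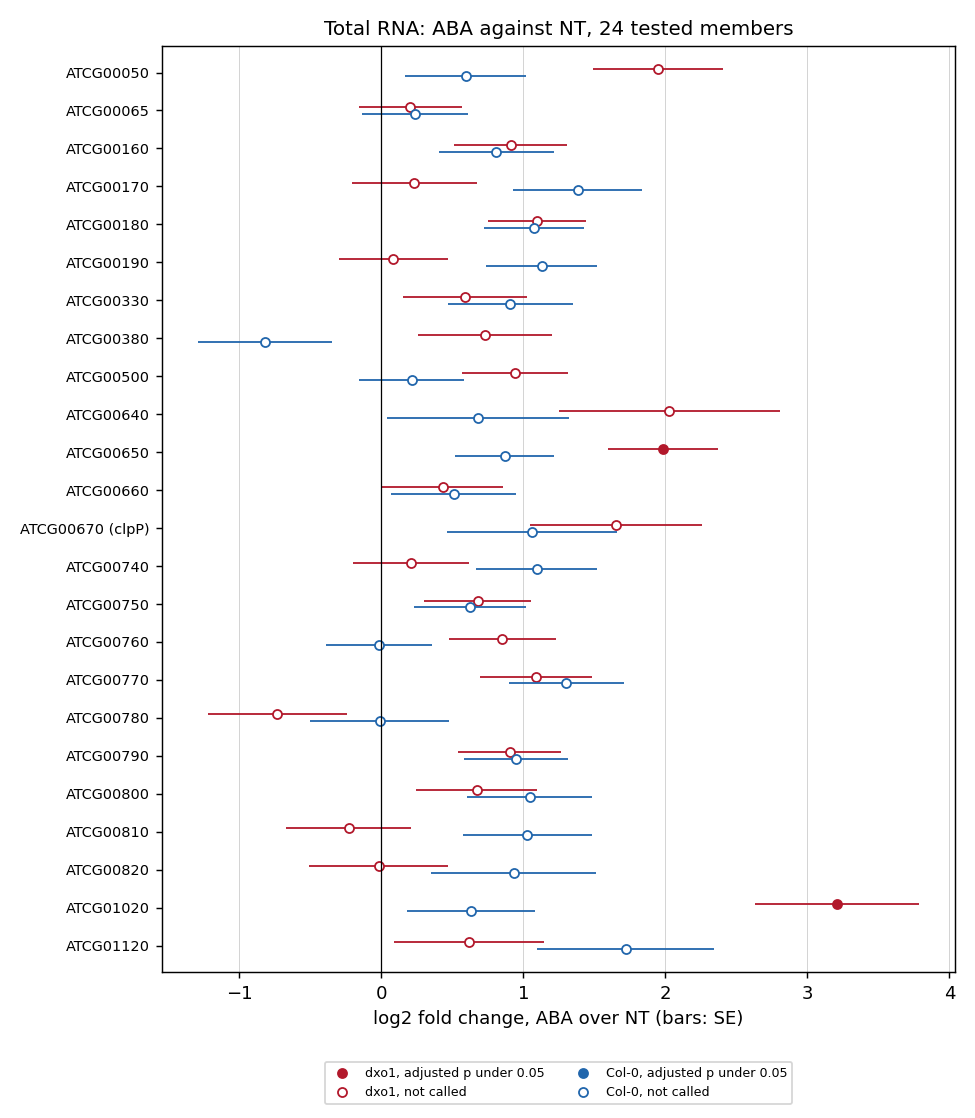
log2 fold change of ABA over NT in total RNA for the 24 tested members in dxo1 and Col-0, with bars of 1 SE; filled points passed the adjusted p threshold of 0.05. Most points lie to the right of 0, and ATCG00650 and ATCG01020 in dxo1 are the filled ones.

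NAD capture was set against total RNA in each of the 4 groups, to ask which members were more frequent among NAD-captured RNA. Relative to all genes, 6 members were higher and 5 lower in dxo1 ABA, 10 higher and 1 lower in dxo1 NT, 2 higher and 1 lower in Col-0 ABA, and 7 higher and 1 lower in Col-0 NT, of 26 tested. Of all 5475 genes, 5.37% were higher and 6.03% lower in dxo1 ABA, 7.03% and 6.45% in dxo1 NT, 1.17% and 1.75% in Col-0 ABA, and 1.52% and 2.76% in Col-0 NT. The members' medians were 0.07, 0.73, -0.44 and 0.89 in that order of groups, beside -0.05, 0.01, -0.11 and 0.03 over all genes. Of 70 other plastid genes tested, 10 were higher and 7 lower in dxo1 ABA, and 20 and 3 in dxo1 NT. In Col-0 ABA 7 of these were higher and 4 lower, and in Col-0 NT 9 and 7. Their medians were 0.10, 0.60, -0.23 and 0.15 in the same order. Scaled to the plastid total, which moved the median of all genes to 0.41 to 1.83, 5, 17, 2 and 16 members were higher and 0 were lower. With that scaling 146, 2435, 95 and 1000 of the 5475 genes were called. Scaled to library size, 1, 4, 2 and 0 members were higher and 0, 0, 4 and 0 lower, beside 40, 98, 383 and 76 of the 5475 genes called. The count called fell to 4 in dxo1 ABA without either NAD library and to 7 without total RNA replicate 2, to 7 in dxo1 NT without NAD replicate 2, and in Col-0 NT to 4 without NAD replicate 2 or total RNA replicate 2 and to 2 without total RNA replicate 1. Of the 26 members, ATCG00920 and ATCG00950 passed the low-count filter in NAD libraries and not in total RNA libraries alone. They entered through the assay where they were higher, and they were the 2 called higher in Col-0 ABA. No mock capture was analysed here, so enrichment without a NAD cap was not measured.

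ATCG00950 was called higher in all 4 groups. It had 44 and 33 reads in dxo1 ABA NAD libraries, against 11 and 5 in total RNA, and 36 and 31 in dxo1 NT, against 8 and 4. In Col-0 ABA it had 99 and 38 reads in NAD, against 5 and 5 in total RNA, and in Col-0 NT 60 and 68, against 19 and 6. The log2 fold changes were 3.002 ± 0.64, 2.91 ± 0.67, 5.49 ± 0.68 and 2.49 ± 0.60 (SE) in the same order. Every NAD library lay above every total RNA library of its group. ATCG00950 passed the low-count filter in NAD libraries but not in total RNA libraries alone. It entered this comparison through the assay where it was higher, which favoured a call in that direction. Reads without a unique place in the genome, most of those in both assays, are not in these counts. Their part in this difference was not tested. Its 99 reads in Col-0 ABA come from the library that stood apart, and without that library the change was 3.58 (adjusted p = 0.000789 by edgeR). The Col-0 NT call was lost without Col-0 NT NAD replicate 2 (2.21, adjusted p = 0.083) and without either Col-0 NT total RNA library (2.82 and 2.33, adjusted p = 0.0976 and 0.104).

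ATCG00920 had 37 and 16 reads in dxo1 ABA NAD libraries, against 2 and 2 in total RNA, and 22 and 28 in dxo1 NT, against 7 and 1. In Col-0 ABA it had 64 and 27, against 7 and 1, and in Col-0 NT 22 and 14, against 5 and 2. It was called in the first 3, at 4.34 ± 0.87, 3.09 ± 0.79 and 5.19 ± 0.75, and not in Col-0 NT, at 2.403 ± 0.85 (SE, adjusted p = 0.121) by edgeR. Without the library that stood apart the Col-0 ABA value was 3.43 (adjusted p = 0.00956 by edgeR). The dxo1 NT call was lost without NAD replicate 2 or total RNA replicate 2, and the dxo1 ABA call without NAD replicate 1 (3.65, adjusted p = 0.0525). Like ATCG00950, this gene passed the low-count filter in NAD libraries but not in total RNA libraries alone, which favoured a call of higher. Few total RNA reads lie behind each of the values above, which limits their precision. Reads without a unique place are not in them, and the part of such reads was not tested.

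ATCG01020, ATCG00640, ATCG00650 and ATCG00050 were each called higher in dxo1 ABA, dxo1 NT and Col-0 NT, and not in Col-0 ABA. For each, the lower of the Col-0 ABA NAD values came from the library that stood apart. ATCG01020 had 89.3 and 81.4 normalized CPM in dxo1 ABA NAD, against 14.4 and 17.6 in total RNA, and 87.3 and 80.5 in dxo1 NT NAD, against 1.20 and 2.24. In Col-0 ABA it had 26.7 and 57.6, against 25.3 and 14.6, and in Col-0 NT 58.9 and 76.5, against 10.4 and 16.4. Its NAD levels were alike in the dxo1 groups, while its total RNA level in dxo1 NT rested on 2 and 3 reads. The log2 fold changes were 2.42 ± 0.38, 5.56 ± 0.52, 1.15 ± 0.41 and 2.39 ± 0.42 (SE), the third of which was not called. The Col-0 NT call was lost without total RNA replicate 1 (2.002, adjusted p = 0.093 by edgeR).

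ATCG00650 had 82.1 and 108 normalized CPM in dxo1 ABA NAD, against 28.3 and 23.8 in total RNA, and 96.2 and 78.4 in dxo1 NT NAD, against 6.60 and 6.73. In Col-0 NT it had 102 and 103 in NAD, against 27.1 and 20.9, and in Col-0 ABA 33.4 and 97.6, against 43.9 and 46.6, where the groups overlap. The value of 33.4 came from the library that stood apart. ATCG00050 changed by 1.33 ± 0.38 in dxo1 ABA, 3.40 ± 0.44 in dxo1 NT and 1.90 ± 0.41 in Col-0 NT, and ATCG00640 by 2.55 ± 0.49, 4.87 ± 0.61 and 2.95 ± 0.53 (SE). Outside dxo1 NT, the calls of ATCG00050 were lost without 3 libraries in dxo1 ABA and 2 in Col-0 NT, that of ATCG00640 in Col-0 NT without total RNA replicate 1, and that of ATCG00650 in dxo1 ABA without NAD replicate 2. ATCG00640 had 94 and 46 reads in dxo1 NT NAD, against 2 and 4 in total RNA. ATCG00790, the leading member in GMUCT, had 404 and 367 normalized CPM in dxo1 NT NAD, against 101 and 106 in total RNA, and 330.3 and 322 in Col-0 NT NAD, against 95.2 and 83.5. It was called in both NT groups, at 1.90 ± 0.36 and 1.86 ± 0.36, and not in dxo1 ABA, at 0.77 ± 0.35, or Col-0 ABA, at 0.25 ± 0.36. The Col-0 NT call was lost without either total RNA library (adjusted p = 0.0515 and 0.0576 by edgeR).

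ATCG00190 was lower in NAD than in total RNA in dxo1 ABA, dxo1 NT and Col-0 ABA. It had 117 and 89.2 normalized CPM in dxo1 ABA NAD, against 233 and 392 in total RNA, 117 and 81.5 in dxo1 NT NAD, against 301 and 298, and 160.3 and 105 in Col-0 ABA NAD, against 346 and 329.6. The log2 fold changes were -1.59 ± 0.36, -1.59 ± 0.36 and -1.37 ± 0.37 (SE), and the groups did not overlap. Scaled to the plastid total, the dxo1 NT value was 0.19, above 0. The calls were each lost without at least 1 library: 3 of 4 in dxo1 ABA and in Col-0 ABA, and NAD replicate 2 in dxo1 NT. clpP was called lower in dxo1 ABA alone, at -1.92 ± 0.50 (SE, adjusted p = 0.0141) by edgeR, where its total RNA replicates differed widely, and was -0.58 (adjusted p = 0.621) without total RNA replicate 2. Of the 35 nuclear-encoded plastid ribosomal proteins, 10 were higher and 0 lower in dxo1 ABA, 12 and 0 in dxo1 NT, 2 and 0 in Col-0 ABA, and 3 and 1 in Col-0 NT. In the same order 5.37%, 7.03%, 1.17% and 1.52% of all genes were higher, and 6.03%, 6.45%, 1.75% and 2.76% lower. The other calls among the members were those of ATCG00770 at 1.93, ATCG00500 at 1.12 and ATCG00800 at 1.29 in dxo1 NT, ATCG00380 at -1.44, ATCG00760 at -1.71 and ATCG01120 at -1.70 in dxo1 ABA, and ATCG00740 at 1.54 and ATCG00760 at -1.75 in Col-0 NT. Of these 8 calls, that of ATCG00770 held without each library in turn. Those of ATCG00500 and ATCG00740 were lost without any 1 of the 4 libraries, those of ATCG00800, ATCG00380, ATCG01120 and, in Col-0 NT, ATCG00760 without each of 3, and that of ATCG00760 in dxo1 ABA without either NAD library. Whether the NAD difference of a member differed between groups was not tested here.

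**Figure D5:**
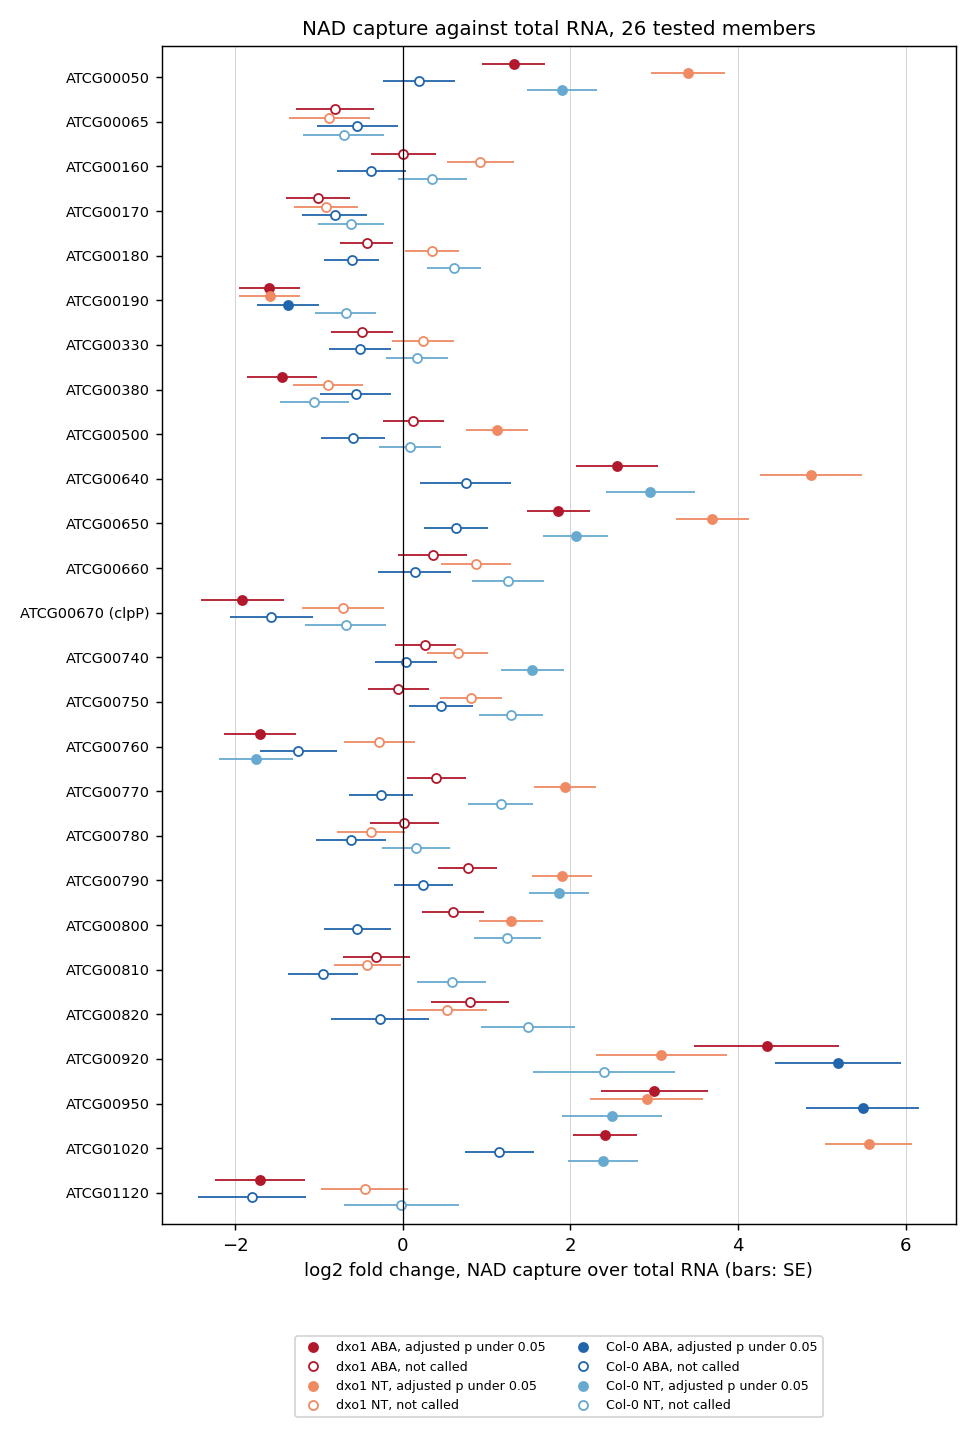
log2 fold change of NAD capture over total RNA for the 26 tested members in the 4 groups, with bars of 1 SE; filled points passed the adjusted p threshold of 0.05. ATCG00950 is filled and to the right in all 4 groups, and ATCG00190 is filled and to the left in 3.

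Within NAD libraries alone no member was called for ABA or genotype by edgeR. For ABA the members at an unadjusted p under 0.05 were 0 in dxo1 and 7 in Col-0, and for dxo1 against Col-0 they were 8 with ABA and 1 in NT. Over all genes 0.367% and 0.472% were called for ABA, and 0.157% and 0.315% for genotype. The DESeq2 Wald test called 0 and 1 members for ABA, and 2 and 0 for genotype. Without Col-0 ABA replicate 2, which leaves the library that stood apart as the only one of its group, edgeR called 5 for ABA in Col-0, 3 for genotype with ABA and 2 for the interaction, and without dxo1 ABA replicate 1 it called 2 for genotype with ABA. Without either Col-0 NT library it called 1 for ABA in Col-0. The interaction called 0 members and 0% of all genes by edgeR, with 3 members at an unadjusted p under 0.05 and 0 by DESeq2. ATCG00920 and ATCG00950 had the smallest p in ABA-treated dxo1 against ABA-treated Col-0, at -2.34 ± 0.60 (SE, adjusted p = 0.129) and -2.47 ± 0.58 (SE, adjusted p = 0.109) by edgeR, and both were highest in the Col-0 ABA library that stood apart.

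GMUCT was set against total RNA in the same way. Relative to all genes, nearly all members were lower in GMUCT: 1 was higher and 23 lower in dxo1 ABA, 3 and 21 in dxo1 NT, 1 and 24 in Col-0 ABA, and 1 and 22 in Col-0 NT, of 27 tested. 17.8%, 18.2%, 18.6% and 17.6% of 17930 genes were higher in that order, and 12.7%, 12.0%, 11.4% and 9.75% lower. The direction rested on the scaling. Scaled to the plastid total, which moved the median of all genes to 5.92 to 7.30, 15 members were higher and 4 lower in dxo1 ABA, 22 and 0 in dxo1 NT, 18 and 3 in Col-0 ABA, and 23 and 3 in Col-0 NT. With that scaling 17846, 17789, 17778 and 17745 of the 17930 genes were called in the same order. The member counts there thus do not set the members apart from other genes. The members' medians were -4.63, -3.42, -3.54 and -2.50, beside 0.26, 0.42, 0.36 and 0.51 over all genes, and those of the other plastid genes -7.56, -6.63, -7.46 and -6.81. ATCG00960, at 0 in every GMUCT library, left the members' medians as given when put at the limit of 3 reads over the group. ATCG00920, ATCG00950 and ATCG00960 were each called lower in all 4 groups. These genes passed the low-count filter in neither assay alone. They entered here through total RNA, where their CPM was higher, which favoured a call of lower in GMUCT.

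ATCG00790 was the 1 member called higher in GMUCT in all 4 groups. It had 4648 and 2852 normalized CPM in dxo1 ABA GMUCT, against 560.2 and 458 in total RNA, and 4991 and 4379.9 in dxo1 NT GMUCT, against 269 and 274. In Col-0 ABA it had 3149.6 and 4114 in GMUCT, against 542 and 349, and in Col-0 NT 3515 and 2764, against 239 and 187. The log2 fold changes were 2.88 ± 0.39, 4.11 ± 0.42, 3.02 ± 0.40 and 3.87 ± 0.42 (SE), and its direction was the same under each scaling tried. clpP was lower in all 4 groups, at -4.98 ± 0.47, -3.29 ± 0.43, -2.70 ± 0.42 and -2.04 ± 0.41, but was above 0 with plastid scaling in each, and with library size in Col-0 NT. In dxo1 NT, ATCG00800 and ATCG01020 were also higher, at 1.34 and 1.51 (adjusted p = 0.00262 and 0.0475 by edgeR). The first was lost without total RNA replicate 2 (1.02, adjusted p = 0.0807), and the DESeq2 Wald test called 2 members higher there, not 3. ATCG00330 was called in none, at -0.38 ± 0.35, -0.11 ± 0.35, 0.13 ± 0.35 and 0.74 ± 0.36.

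The nuclear lists were counted in the same fits, without a test of the counts. Of all 17930 genes, 17.8% were higher and 12.7% lower in dxo1 ABA, and 18.2% and 12.0% in dxo1 NT. In Col-0 ABA these shares were 18.6% and 11.4%, and in Col-0 NT 17.6% and 9.75%. Of the 35 nuclear-encoded plastid ribosomal proteins, 18 were higher and 5 lower in GMUCT in dxo1 ABA, 17 and 5 in dxo1 NT, 20 and 4 in Col-0 ABA, and 22 and 4 in Col-0 NT. Of the 8 sigma factors and polymerases, 4, 5, 4 and 5 were higher and 0, 0, 1 and 0 lower in the same order. Of the 14 polymerase-associated proteins 3, 2, 3 and 4 were higher and 1, 2, 1 and 1 lower, and PRIN2, a protein of redox-linked plastid transcription, was lowest at -7.61, -8.31, -8.30 and -7.95. Of the 11 partners of clpP and accD 4, 4, 3 and 3 were higher and 2, 1, 0 and 2 lower, and CLPR1, a subunit of the Clp core, was at 1.90, 1.83, 2.17 and 2.17.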

How the data were processed

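Per the submitters' processing notes, the authors used cutadapt, STAR 2.4.2a and HTSeq on the TAIR10 build. The deposited files hold counts of reads per gene, without normalization. Counting mode and strand setting were not given in the sources used here, so reads of overlapping or antisense genes cannot be told apart. The 5 tally lines that name no gene were left out of library sizes. CPM and shares of plastid counts were computed from the counts, and identifiers were matched to TAIR10.1, whose coordinates and sequences were not used. Libraries of total RNA, GMUCT, NAD, NAD with total RNA, and GMUCT with total RNA were fitted apart in edgeR 4.0.16 (R 4.3.3): filterByExpr with a minimum count of 10, TMM, group means, quasi-likelihood F tests, and Benjamini-Hochberg adjustment over all genes at 0.05. SE, which is approximate, was taken as the size of the log2 fold change divided by the root of F. Fits were tested on simulated data. Alternatives were DESeq2 1.42.0, other scalings, no filter, a replicate block and leaving out each library. All members may be named. Of the lists (sigma factors and phage-type polymerases, polymerase-associated proteins, nuclear-encoded plastid ribosomal proteins, partners of clpP and accD, and floral, root and leaf markers) up to 3 genes with the smallest p per comparison may be named. The members and lists were chosen with earlier results of these data known. Root markers summed to 3.95 to 19.7 CPM in total RNA.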

Additional observations from a re-analysis of the deposited data

Results flagged for a closer look

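The ABA response of ATCG00660, the gene of ribosomal protein L20, in GMUCT differed between dxo1 and Col-0 by the test of the difference itself, with an interaction of 1.33 on the log2 scale (adjusted p = 0.00829 by edgeR). The response was 0.12 in dxo1 and -1.20 in Col-0. The interaction passed without each of the 8 libraries in turn. Of 24 members tested 1 passed, beside 8.92% of all genes. This comparison was added after the data were seen.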

How the results depend on the processing

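Precision is limited by 2 libraries per group and by few total RNA and NAD reads of many members. The members' mean share of plastid counts, taken of all gene counts instead, became 1.44% in GMUCT, 0.281% in NAD and 0.372% in total RNA, and without ATCG00230 in the denominator it was 2.98% in total RNA. The planned share of plastid protein-coding counts was not run, because the sources used here do not pair the identifiers with gene classes. The causes of the changes below were not tested.

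With the DESeq2 Wald test the members called were 1 for ABA in total RNA of dxo1, 4 for ABA in GMUCT of Col-0, 1 for ABA in NAD of Col-0, and 2 for dxo1 against Col-0 with ABA in NAD. Without the low-count filter they were 1 for dxo1 in NT total RNA, 1 for ABA in dxo1 GMUCT, 20 for dxo1 in NT GMUCT (4 higher, 16 lower), 3 for the GMUCT interaction, 1 for ABA in NAD of Col-0 and 1 for dxo1 with ABA in NAD. With library size alone they were 0 for ABA in dxo1 total RNA and, for NAD over total RNA, 1 in dxo1 ABA, 4 in dxo1 NT, 6 in Col-0 ABA and 0 in Col-0 NT. With the plastid total they were 5, 17 and 16 for NAD over total RNA in dxo1 ABA, dxo1 NT and Col-0 NT. Over all 5475 genes that scaling called 146, 2435 and 1000. Reversed directions were those of clpP in GMUCT over total RNA with the plastid total, at 0.88 in dxo1 ABA, 3.80 in dxo1 NT, 2.96 in Col-0 ABA and 4.31 in Col-0 NT, and with library size in Col-0 NT, at 0.34, and that of ATCG00190 in NAD over total RNA of dxo1 NT with the plastid total, at 0.19. DESeq2 size factors left every count within 1.5 times.

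Replicate numbers share no source in the labels, and the correlation between replicate differences was -0.06 to 0.27, so they were not taken as pairs. With a replicate block the members called were 2 for dxo1 in NT total RNA, against 0 without, and 3 for ABA in dxo1 total RNA, against 2, and other counts moved by at most 1.

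With 1 library left out, the members called ranged from 0 to 4 for ABA in dxo1 total RNA, from 3 to 4 for ABA in Col-0 GMUCT, from 0 to 3 for ABA in dxo1 GMUCT, from 9 to 19 for dxo1 in NT GMUCT (19 without dxo1 NT replicate 1), and from 1 to 5 for the GMUCT interaction. The ranges were 0 to 5 for ABA in Col-0 NAD (5 without Col-0 ABA replicate 2), 0 to 3 for dxo1 with ABA in NAD, and 0 to 2 for the NAD interaction. For NAD over total RNA they were 4 to 11 in dxo1 ABA, 7 to 10 in dxo1 NT, 2 to 3 in Col-0 ABA and 2 to 6 in Col-0 NT, the lowest of these without Col-0 NT total RNA replicate 1. Of 81 calls of single genes checked this way, 45 held without each library in turn. For GMUCT over total RNA the 81 include calls of clpP, ATCG00790 and ATCG00800 alone. The other members' calls there were not checked one by one.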
